A study of Mus musculus with 18 samples.

Results

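The genes described here are 35 genes of glycolysis and of the response to low oxygen, chosen by name and read as 1 microarray probe set per gene. Of these, 31 were measured among the 18193 genes of the arrays, and Gpi1, Gapdh, Eno1 and Bnip3l had no probe set annotated to them alone. The measured members were 2 glucose transporters, 12 glycolytic enzymes, 4 genes of lactate production and transport, 4 regulators of glycolytic flux and 9 other hypoxia-response genes.

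Total RNA of mouse pluripotent cells was hybridised to 18 Affymetrix arrays, 3 for each of 6 cell lines. R1 is an embryonic stem (ES) line labelled 129X1/SvJ x 129S1 F1, and ESC2 is an ES line labelled B6 x D2 F1. The induced pluripotent stem (iPS) lines IP14D-1, IP20D-3 and IP36D-3 carry the same B6 x D2 F1 label as ESC2, whereas the iPS line IP14D-101 is labelled B6 x 129S2 F1. All lines grew with LIF, which keeps mouse stem cells undifferentiated, on mouse embryonic fibroblasts arrested with mitomycin C, in medium with either fetal bovine serum or a serum replacement. No label ties a line to its medium, so medium and line cannot be told apart. Each line is a single line, and strain and line change together outside the B6 x D2 F1 label. The design text calls the 3 arrays of a line biological replicates, but no label names separate cultures, so p-values between lines measure the spread between arrays, which may be technical. The fibroblasts from which the iPS lines were made were not analysed here.

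Glycolysis splits glucose into pyruvate in the cytosol and yields ATP without oxygen, and lactate dehydrogenase then turns pyruvate into lactate, which is exported. In low oxygen the prolyl hydroxylases that mark HIF-1 alpha for destruction slow down, and the stabilised factor binds a short DNA core, ACGTG or GCGTG, near genes of glucose transport, glycolysis, lactate export and mitochondrial restraint. Mouse ES and iPS cells are known to draw much of their ATP from glycolysis even in oxygen, and the balance between glycolysis and respiration shifts with pluripotent state. Levels below are log2 intensities of the authors' RMA values (background-corrected, quantile-normalised and summarised over probes), and a difference of 1 on that scale is a doubling of intensity. A level is comparable between lines for 1 probe set, not between genes. The median level of all genes was 5.92.

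The upstream sequences of 7 members follow, namely the 6 members with the widest spans between lines and Ldha, whose window held the most ACGTG cores. Each is the 250 bases before the first listed transcription start, in the direction of the gene, from RefSeq on build GRCm38.p6. Capitals mark each ACGTG or GCGTG read on either strand, so CACGT and CACGC are the same cores on the opposite strand, and overlapping cores run together. The window of Slc16a3, which encodes the lactate exporter MCT4, is chr11:120948817-120949066 (plus strand) with 2 cores, and that of Slc2a1, which encodes the glucose transporter GLUT1, is chr4:119108495-119108744 (plus strand) with 2. The window of Pfkl, a phosphofructokinase subunit, is chr10:78009808-78010057 (minus strand) with 1 core, and that of Ldha, a lactate dehydrogenase subunit, is chr7:46845554-46845803 (plus strand) with 5. For Egln3, an oxygen-sensing prolyl hydroxylase, it is chr12:54203875-54204124 (minus strand) with 1 core. For Bnip3, a mitophagy receptor, it is chr7:138909507-138909756 (minus strand) with 5 cores, and for Ankrd37, a hypoxia-induced ankyrin-repeat gene, chr8:45999851-46000100 (minus strand) with 4.
Slc16a3: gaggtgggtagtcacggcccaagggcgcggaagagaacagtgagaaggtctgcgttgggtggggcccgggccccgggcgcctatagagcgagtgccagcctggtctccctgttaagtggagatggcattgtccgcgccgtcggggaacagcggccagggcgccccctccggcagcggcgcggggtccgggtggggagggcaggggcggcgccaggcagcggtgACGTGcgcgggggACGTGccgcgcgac
Slc2a1: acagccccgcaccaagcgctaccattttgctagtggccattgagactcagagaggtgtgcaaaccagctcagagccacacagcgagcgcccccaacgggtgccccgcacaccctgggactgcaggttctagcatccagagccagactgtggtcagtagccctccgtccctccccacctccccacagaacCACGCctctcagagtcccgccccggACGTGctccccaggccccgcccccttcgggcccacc
Pfkl: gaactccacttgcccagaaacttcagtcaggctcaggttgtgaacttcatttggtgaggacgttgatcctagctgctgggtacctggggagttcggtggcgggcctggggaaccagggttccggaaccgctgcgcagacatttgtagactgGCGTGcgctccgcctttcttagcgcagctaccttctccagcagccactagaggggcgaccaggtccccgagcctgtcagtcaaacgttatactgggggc
Ldha: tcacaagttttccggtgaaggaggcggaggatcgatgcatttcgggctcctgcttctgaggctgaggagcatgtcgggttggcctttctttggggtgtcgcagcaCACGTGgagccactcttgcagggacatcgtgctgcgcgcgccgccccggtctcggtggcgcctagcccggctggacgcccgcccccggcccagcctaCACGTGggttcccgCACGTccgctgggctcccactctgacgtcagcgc
Egln3: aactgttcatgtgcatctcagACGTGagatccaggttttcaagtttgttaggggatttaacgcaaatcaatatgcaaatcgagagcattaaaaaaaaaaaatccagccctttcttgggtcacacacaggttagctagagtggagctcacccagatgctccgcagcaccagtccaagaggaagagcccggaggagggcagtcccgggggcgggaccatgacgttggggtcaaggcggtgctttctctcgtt
Bnip3: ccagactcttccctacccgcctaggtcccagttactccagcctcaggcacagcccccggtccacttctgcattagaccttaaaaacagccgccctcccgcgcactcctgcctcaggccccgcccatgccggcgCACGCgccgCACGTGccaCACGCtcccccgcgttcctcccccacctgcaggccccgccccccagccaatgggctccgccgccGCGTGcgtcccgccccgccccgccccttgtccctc
Ankrd37: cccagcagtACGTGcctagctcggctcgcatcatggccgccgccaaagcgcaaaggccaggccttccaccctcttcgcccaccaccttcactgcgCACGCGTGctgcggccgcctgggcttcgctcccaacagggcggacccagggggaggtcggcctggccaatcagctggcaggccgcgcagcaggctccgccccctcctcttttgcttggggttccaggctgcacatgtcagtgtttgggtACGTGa

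In all, 32 of the 35 listed members matched the promoter table. Of these, 29 (90.6%) held ACGTG or GCGTG in at least 1 of their windows, against 41.5% of the 27025 genes of the table. The stricter ACGTG stood in 19 members (59.4%) and 18.5% of all genes. It was present in 8 of 8 matched hypoxia genes outside glycolysis and in 11 of 24 glycolysis genes (45.8%). Counted in the richest window of each gene, the members were also rich in CG pairs, with a median of 15 against 6 for all genes. Among the 7995 genes with at least 15, 28.3% held ACGTG and 71.2% held either core. These are letter matches in 1 window length, and no binding was measured.

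The 7 pluripotent-cell markers were high in every line, with line means of the list between 11.57 in ESC2 and 12.20 in IP14D-101, and Pou5f1 between 12.12 and 12.64. Zfp42 ranged from 9.11 in ESC2 to 11.24 in R1, and Utf1 from 10.31 in ESC2 to 11.83 in IP14D-101. The 19 measured fibroblast markers averaged from 4.13 in IP20D-3 to 5.38 in IP14D-1. Fap and Lum stayed at or below 2.65 and 3.38 in all lines, whereas Thbs1 ranged from 4.26 in IP20D-3 to 8.16 in R1, Acta2 from 6.14 in IP20D-3 to 10.03 in IP14D-1 and Lox from 3.93 in IP20D-3 to 6.97 in IP14D-1. Primitive endoderm markers (12 genes) averaged 6.95 ± 0.10 (SD, n = 3) in IP14D-101 and 4.76 to 5.18 in the other lines, with Gata6 at 7.34 there and 4.85 or less elsewhere. The 3' to 5' signal ratio of the actin control, which rises as RNA is degraded, was 1.53 in ESC2 and 1.13 to 1.28 in the other lines. The same ratio of the Gapdh control went the other way, at 0.89 in ESC2 and 0.91 to 0.96 in the other lines. The 18S ribosomal control read an intensity of 42.5 in IP14D-101, 54.6 in R1, 79.0 in IP14D-1, 196 in IP36D-3, 213 in ESC2 and 323 in IP20D-3. The F-test described next called 25.9% of all genes as differing among lines. It called 2 of the 7 pluripotent-cell markers, 10 of the 19 fibroblast markers and 9 of the 12 primitive endoderm markers. Array medians lay between 29.2 and 30.5, and the number of arrays limits the precision of every value.

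The members varied widely among these 6 cultures. By limma's moderated F-test over the 6 line means, 21 of 31 members differed among lines at an adjusted p under 0.05 and by at least 1 between the highest and the lowest line, which is the call used throughout. The share was 67.7%, against 25.9% of all genes tested, or 38.7% of the 9097 genes at or above the median level, of which 28 were members and 20 of these were called. The median span between highest and lowest line was 1.21 for members and 0.64 for all genes. By role, the calls took in 1 of 2 glucose transporters, 7 of 12 enzymes, 4 of 4 genes of the lactate step, 2 of 4 flux regulators and 7 of 9 other hypoxia genes. The adjusted p was under 0.05 for all 31 members, so the span decided which were called. IP14D-101 was the highest line for 18 of 31 members (58.1%; 23.5% of all genes). The lowest line was ESC2 for 11 members (35.5%; 26.4% of all genes) and IP20D-3 for 10 (32.3%; 27.2% of all genes). With IP20D-3 left out, 15 members were called (18.6% of all genes), with IP14D-101 left out 17 (22.6%), and with ESC2 left out 20 (20.4%).

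**Figure D1:**
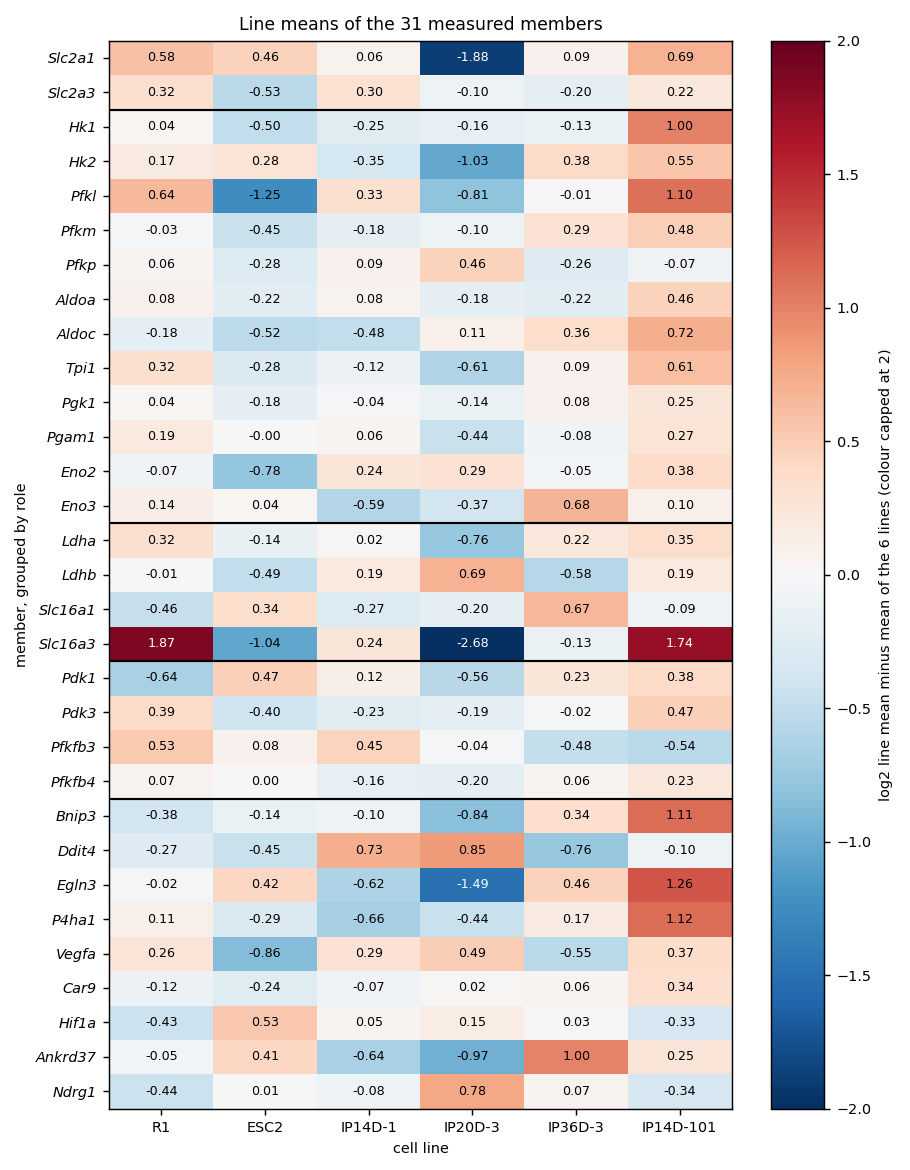
Line means of the 31 measured members, each shown as its difference in log2 intensity from the mean of the 6 lines. Rows are genes grouped by role, columns are lines, and the colour scale stops at a difference of 2. IP14D-101 is highest for 18 members and lowest for 1, while IP20D-3 is lowest for 10 and highest for 5.

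Glucose enters these cells through GLUT1, encoded by Slc2a1, and the high-affinity transporter GLUT3, encoded by Slc2a3. Slc2a1 read 11.94, 12.06 and 12.08 in R1 and 11.89, 11.89 and 11.93 in ESC2. Slc2a1 in the iPS lines read 11.44, 11.45 and 11.64 in IP14D-1, 11.48, 11.56 and 11.56 in IP36D-3, 9.66, 9.75 and 9.29 in IP20D-3 and 12.06, 12.16 and 12.18 in IP14D-101. Every IP20D-3 array lay below every array of the other 5 lines. The span was 2.57, or 5.92-fold (F-test adjusted p = 2.22e-12). From the top, IP14D-101, R1 and ESC2 did not differ as neighbours beyond their spread (limma adjusted p of 0.308 or more), nor did IP36D-3 and IP14D-1, and the step from IP14D-1 down to IP20D-3 was 1.94 (limma adjusted p = 8.13e-11). The other 2 probe sets of Slc2a1 had the same highest and lowest lines, with spans of 2.69 and 3.44. Slc2a3 ranged from 12.35 ± 0.11 in ESC2 to 13.20 ± 0.02 in R1 (SD, n = 3), a span of 0.85 that fell short of the call. Its 3 other probe sets were also lowest in ESC2, but 2 of them, with spans of 1.33 and 1.43, were highest in IP20D-3.

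Hexokinase traps glucose in the cell as glucose phosphate. Hk1 encodes the widespread form and Hk2 the inducible form. Hk1 read 7.09, 7.08 and 7.15 in R1 and 6.53, 6.73 and 6.46 in ESC2. Hk1 in the iPS lines read 6.79, 6.74 and 6.93 in IP14D-1, 6.99, 6.85 and 6.97 in IP36D-3, 7.11, 6.96 and 6.66 in IP20D-3 and 8.09, 7.84 and 8.29 in IP14D-101. The 3 IP14D-101 arrays stood above all 15 others, and the arrays of the other lines ran into one another. The step from IP14D-101 to R1, the next line, was 0.97 (limma adjusted p = 6.6e-06), and no neighbours below R1 differed. A second Hk1 probe set gave the same highest and lowest lines with a span of 2.15. Hk2 read 10.54, 10.59 and 10.63 in R1 and 10.71, 10.65 and 10.71 in ESC2. Hk2 in the iPS lines read 10.03, 9.86 and 10.31 in IP14D-1, 10.79, 10.82 and 10.79 in IP36D-3, 9.33, 9.35 and 9.48 in IP20D-3 and 10.91, 10.94 and 11.05 in IP14D-101. IP20D-3 was lowest on all its arrays and IP14D-1 next lowest, and the other 4 lines lay within 0.37 of each other. The Hk2 span was 1.58 (F-test adjusted p = 3.17e-10), with steps of 0.68 between IP14D-1 and IP20D-3 and 0.52 between R1 and IP14D-1.

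Phosphofructokinase commits sugar to glycolysis, and its liver-type subunit gene Pfkl differed most among the enzymes. Pfkl read 10.92, 10.88 and 10.88 in R1 and 9.07, 9.01 and 8.94 in ESC2. Pfkl in the iPS lines read 10.62, 10.42 and 10.68 in IP14D-1, 10.29, 10.18 and 10.25 in IP36D-3, 9.51, 9.31 and 9.51 in IP20D-3 and 11.27, 11.28 and 11.50 in IP14D-101. The 6 lines formed 6 separate levels, and each differed from its neighbour (limma adjusted p at most 0.00669). The span from ESC2 to IP14D-101 was 2.35, or 5.08-fold (F-test adjusted p = 1.14e-12). A second bright probe set followed the same order of highest and lowest line with a span of 2.03, while a dim one, at a mean of 4.96, was highest in ESC2. The muscle-type subunit Pfkm spanned 0.94, with ESC2 lowest and IP14D-101 highest, and the platelet-type subunit Pfkp spanned 0.74, with ESC2 lowest and IP20D-3 highest. Neither was called, although the 2 dimmer Pfkp probe sets spanned 1.02 and 1.69.

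Aldolase splits the sugar into triose phosphates, and triosephosphate isomerase interconverts them. Aldoc read 7.22, 7.06 and 7.04 in R1 and 6.64, 6.99 and 6.69 in ESC2. Aldoc in the iPS lines read 6.77, 6.67 and 6.98 in IP14D-1, 7.59, 7.57 and 7.79 in IP36D-3, 7.48, 7.51 and 7.21 in IP20D-3 and 7.95, 7.93 and 8.15 in IP14D-101. Aldoc, the brain-type aldolase, was highest in IP14D-101, and ESC2 and IP14D-1 overlapped at the bottom. Its span was 1.24 (F-test adjusted p = 5.85e-08), but its other probe set, at a mean of 2.62, spanned 0.35. Aldoa, the main aldolase, spanned 0.69 on its brightest probe set and was not called, whereas 3 of its 4 other probe sets spanned 1.04, 1.16 and 1.29, each with IP14D-101 highest and ESC2 lowest. Tpi1 read 11.90, 11.90 and 11.93 in R1 and 11.26, 11.33 and 11.33 in ESC2. Tpi1 in the iPS lines read 11.48, 11.37 and 11.55 in IP14D-1, 11.69, 11.64 and 11.69 in IP36D-3, 11.06, 11.00 and 10.88 in IP20D-3 and 12.16, 12.12 and 12.30 in IP14D-101. Tpi1 was highest on every IP14D-101 array and lowest on every IP20D-3 array. Its span was 1.21 (F-test adjusted p = 8.71e-10), and the 2 other probe sets, with spans of 1.42 and 1.39, had the same highest and lowest lines.

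Further down the pathway, Pgk1, which makes the first ATP, spanned 0.43, and Pgam1, phosphoglycerate mutase, spanned 0.71. On the probe sets used, both were highest in IP14D-101 and neither was called. The other Pgk1 probe sets, at means of 12.09 and 11.17, each spanned 0.26 and were highest in ESC2 and lowest in R1. The control probe sets for the 3' end of Gapdh, which were not among the genes tested, read between 13.47 in ESC2 and 13.60 in IP14D-101 and R1. Enolase was measured by its neuronal and muscle forms. Eno3 read 7.91, 7.83 and 8.04 in R1 and 7.86, 7.82 and 7.80 in ESC2. Eno3 in the iPS lines read 7.10, 7.31 and 7.20 in IP14D-1, 8.45, 8.44 and 8.52 in IP36D-3, 7.42, 7.43 and 7.41 in IP20D-3 and 7.77, 7.83 and 8.09 in IP14D-101. Eno3, the muscle form, was highest in IP36D-3, 0.54 above R1 (limma adjusted p = 4.08e-05), and lowest in IP14D-1. Its span was 1.27 (F-test adjusted p = 5.34e-09). Eno2, the neuronal form, was called with a span of 1.15, but its line means of 3.16 to 4.31 lay well below the median of all genes.

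**Figure D2:**
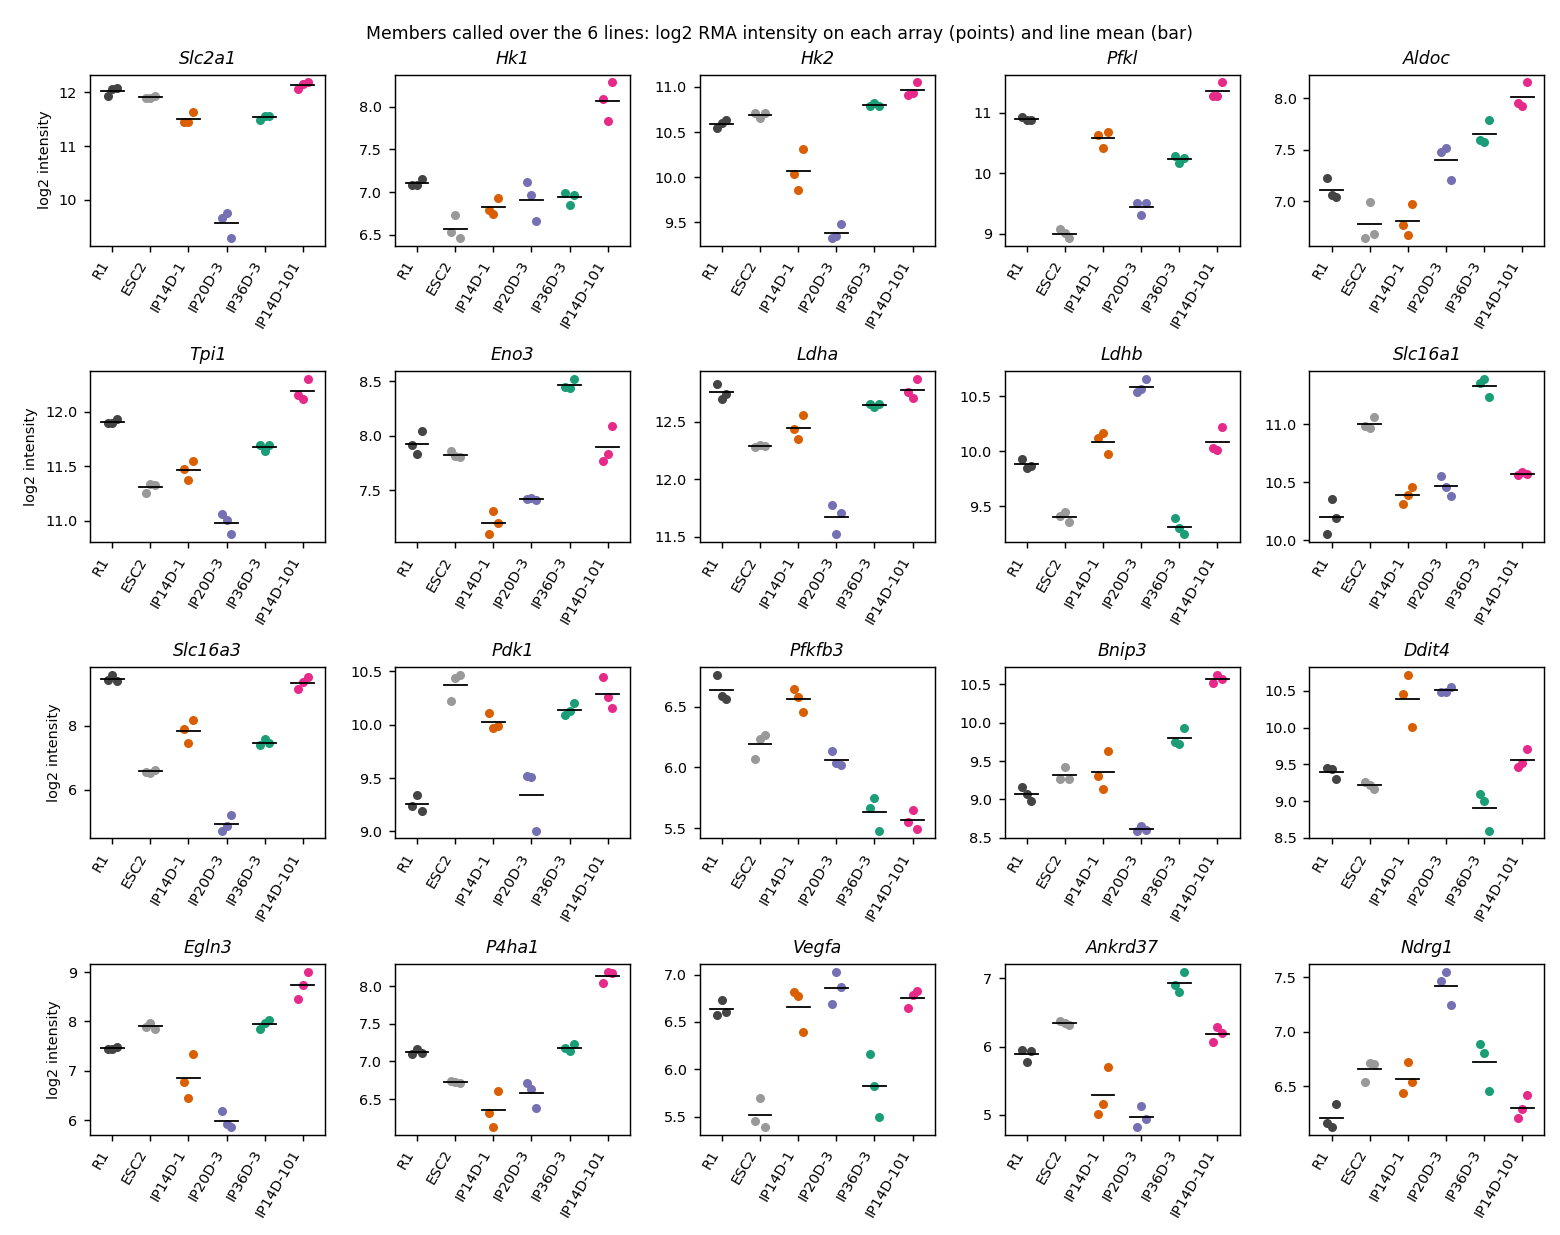
Log2 intensity of the 20 called members whose highest line mean reached 6, on each of the 18 arrays. Points are arrays, bars are line means, and each panel has its own axis. For Slc16a3 the arrays run from 4.71 to 9.59, with IP20D-3 lowest and R1 and IP14D-101 highest.

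At the lactate step all 4 genes were called. Lactate dehydrogenase is built from A subunits, which favour lactate production, and B subunits, which favour its use. Ldha read 12.83, 12.70 and 12.75 in R1 and 12.28, 12.30 and 12.29 in ESC2. Ldha in the iPS lines read 12.44, 12.35 and 12.56 in IP14D-1, 12.66, 12.63 and 12.66 in IP36D-3, 11.77, 11.52 and 11.71 in IP20D-3 and 12.76, 12.70 and 12.88 in IP14D-101. IP20D-3 was lowest on all 3 arrays, and R1, IP14D-101 and IP36D-3 were close together at the top. The Ldha span was 1.11 (F-test adjusted p = 3.55e-09), of which 0.62 lay between IP20D-3 and ESC2, the next line up. Ldhb read 9.93, 9.85 and 9.86 in R1 and 9.41, 9.45 and 9.35 in ESC2. Ldhb in the iPS lines read 10.12, 10.16 and 9.97 in IP14D-1, 9.40, 9.30 and 9.25 in IP36D-3, 10.54, 10.56 and 10.66 in IP20D-3 and 10.03, 10.01 and 10.22 in IP14D-101. Ldhb was highest on every IP20D-3 array and lowest in IP36D-3 and ESC2. Its span was 1.27 (F-test adjusted p = 5.88e-10), IP20D-3 stood 0.50 above IP14D-101, and all 3 other probe sets were highest in IP20D-3. IP20D-3 thus had the lowest Ldha and the highest Ldhb of the 6 lines.

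Lactate leaves or enters the cell through monocarboxylate transporters, of which MCT4 (Slc16a3) is tied to export from glycolytic cells and MCT1 (Slc16a1) is widespread. Slc16a3 read 9.45, 9.59 and 9.40 in R1 and 6.56, 6.54 and 6.61 in ESC2. Slc16a3 in the iPS lines read 7.90, 7.46 and 8.19 in IP14D-1, 7.38, 7.59 and 7.45 in IP36D-3, 4.71, 4.86 and 5.21 in IP20D-3 and 9.15, 9.36 and 9.52 in IP14D-101. The values fell into levels that ran from below the median of all genes in IP20D-3 to well above it in R1 and IP14D-101. The span of 4.55, or 23.5-fold, was the widest among the members (F-test adjusted p = 3.26e-13). R1 and IP14D-101 differed by 0.14 (limma adjusted p = 0.59) and IP14D-1 and IP36D-3 by 0.38 (adjusted p = 0.0511), and the other neighbours differed by 0.90 to 1.64. The fibroblast markers averaged 4.13 in IP20D-3, 4.37 in IP36D-3, 4.58 in IP14D-101, 4.89 in R1, 5.20 in ESC2 and 5.38 in IP14D-1, and their part in the Slc16a3 levels was not tested. Slc16a1 read 10.05, 10.36 and 10.19 in R1 and 10.99, 10.96 and 11.06 in ESC2. Slc16a1 in the iPS lines read 10.32, 10.39 and 10.46 in IP14D-1, 11.35, 11.39 and 11.24 in IP36D-3, 10.55, 10.46 and 10.38 in IP20D-3 and 10.56, 10.59 and 10.57 in IP14D-101. Slc16a1 was highest in IP36D-3 and lowest in R1, and R1 and IP14D-1 overlapped. Its span was 1.13 (F-test adjusted p = 5.06e-09).

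Flux into and out of glycolysis is set by kinases. Pdk1 and Pdk3 inhibit pyruvate dehydrogenase and keep pyruvate from the mitochondria, and Pfkfb3 and Pfkfb4 control an activator of phosphofructokinase. Pdk1 read 9.24, 9.35 and 9.19 in R1 and 10.22, 10.44 and 10.46 in ESC2. Pdk1 in the iPS lines read 10.11, 9.97 and 9.99 in IP14D-1, 10.09, 10.13 and 10.20 in IP36D-3, 9.52, 9.51 and 9.01 in IP20D-3 and 10.45, 10.26 and 10.15 in IP14D-101. R1 and IP20D-3 were low and did not differ from each other, and the other 4 lines lay within 0.35. The span was 1.12 (F-test adjusted p = 1.07e-07). The other 3 Pdk1 probe sets were also lowest in R1 but highest in IP36D-3. Pfkfb3 read 6.76, 6.59 and 6.57 in R1 and 6.07, 6.24 and 6.27 in ESC2. Pfkfb3 in the iPS lines read 6.65, 6.58 and 6.45 in IP14D-1, 5.66, 5.75 and 5.48 in IP36D-3, 6.14, 6.04 and 6.02 in IP20D-3 and 5.55, 5.66 and 5.50 in IP14D-101. Pfkfb3 was the 1 member with its lowest level in IP14D-101, close to IP36D-3, and its highest in R1. The span was 1.07 (F-test adjusted p = 6.42e-09), while a second, dimmer probe set with the same highest and lowest lines spanned 0.37. Pdk3 spanned 0.87 with IP14D-101 highest and ESC2 lowest, Pfkfb4 spanned 0.43, and neither was called.

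Among the hypoxia genes outside glycolysis, those for mitophagy, oxygen sensing and collagen hydroxylation were highest in IP14D-101. Bnip3 encodes a receptor that sends mitochondria to autophagy. Bnip3 read 9.16, 9.08 and 8.98 in R1 and 9.27, 9.43 and 9.27 in ESC2. Bnip3 in the iPS lines read 9.31, 9.13 and 9.64 in IP14D-1, 9.75, 9.72 and 9.93 in IP36D-3, 8.59, 8.65 and 8.61 in IP20D-3 and 10.52, 10.62 and 10.57 in IP14D-101. IP14D-101 stood above and IP20D-3 below all other arrays. The span was 1.95 (F-test adjusted p = 2.86e-10), with 0.77 between IP14D-101 and IP36D-3. Egln3 encodes the prolyl hydroxylase PHD3, itself induced by HIF as feedback. Egln3 read 7.44, 7.45 and 7.49 in R1 and 7.89, 7.98 and 7.84 in ESC2. Egln3 in the iPS lines read 6.77, 6.45 and 7.35 in IP14D-1, 7.85, 7.96 and 8.02 in IP36D-3, 6.18, 5.92 and 5.86 in IP20D-3 and 8.45, 8.75 and 9.01 in IP14D-101. IP14D-101 was again above and IP20D-3 below every other array, and the IP14D-1 arrays were the most spread, at 6.86 ± 0.46 (SD, n = 3). The span was 2.75, or 6.73-fold (F-test adjusted p = 1.57e-09). A second, dimmer probe set had the same highest and lowest lines and a span of 2.97, but it placed IP14D-1 above ESC2. P4ha1 encodes the catalytic subunit of collagen prolyl hydroxylase. P4ha1 read 7.09, 7.17 and 7.11 in R1 and 6.74, 6.73 and 6.71 in ESC2. P4ha1 in the iPS lines read 6.31, 6.13 and 6.61 in IP14D-1, 7.18, 7.14 and 7.23 in IP36D-3, 6.72, 6.63 and 6.38 in IP20D-3 and 8.04, 8.19 and 8.18 in IP14D-101. Only the IP14D-101 arrays exceeded 8, 0.95 above IP36D-3 on average (limma adjusted p = 7.95e-07). The P4ha1 span was 1.78 (F-test adjusted p = 6.39e-10), with IP14D-1 lowest on this and on a second probe set with a span of 2.14. The primitive endoderm markers were also highest in IP14D-101, by the values given above, and their part in these levels was not tested.

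The other hypoxia genes took different orders. Ddit4 encodes REDD1, an inhibitor of the growth kinase mTORC1. Ddit4 read 9.45, 9.43 and 9.31 in R1 and 9.27, 9.22 and 9.17 in ESC2. Ddit4 in the iPS lines read 10.46, 10.71 and 10.01 in IP14D-1, 9.10, 9.00 and 8.60 in IP36D-3, 10.49, 10.49 and 10.55 in IP20D-3 and 9.46, 9.52 and 9.71 in IP14D-101. IP14D-1 and IP20D-3 were high and did not differ as neighbours, and their arrays lay above all others. The span was 1.61 (F-test adjusted p = 2.76e-08), and the step down to IP14D-101 was 0.83. Vegfa encodes the angiogenic growth factor VEGF-A. Vegfa read 6.57, 6.73 and 6.61 in R1 and 5.45, 5.70 and 5.39 in ESC2. Vegfa in the iPS lines read 6.82, 6.78 and 6.39 in IP14D-1, 6.16, 5.83 and 5.50 in IP36D-3, 6.69, 7.03 and 6.87 in IP20D-3 and 6.64, 6.78 and 6.83 in IP14D-101. ESC2 and IP36D-3 were low and did not differ, and the other 4 lines lay within 0.23. Its span was 1.35 (F-test adjusted p = 2.54e-07), and a second probe set was also lowest in ESC2. Ankrd37 read 5.94, 5.78 and 5.94 in R1 and 6.38, 6.34 and 6.32 in ESC2. Ankrd37 in the iPS lines read 5.02, 5.16 and 5.69 in IP14D-1, 6.90, 6.79 and 7.10 in IP36D-3, 4.82, 5.13 and 4.94 in IP20D-3 and 6.07, 6.28 and 6.20 in IP14D-101. IP36D-3 was highest, and IP20D-3 and IP14D-1 were lowest with overlapping arrays. Ankrd37 spanned 1.97 (F-test adjusted p = 3.68e-09). Ndrg1 read 6.17, 6.13 and 6.33 in R1 and 6.54, 6.71 and 6.71 in ESC2. Ndrg1 in the iPS lines read 6.44, 6.72 and 6.54 in IP14D-1, 6.89, 6.81 and 6.45 in IP36D-3, 7.47, 7.55 and 7.24 in IP20D-3 and 6.20, 6.29 and 6.41 in IP14D-101. Ndrg1, a stress-induced gene, was highest in IP20D-3 and spanned 1.21 (F-test adjusted p = 3.99e-07). Its 4 other probe sets correlated with this one over the 6 line means by only -0.11 to 0.38, and all were lowest in ESC2. Hif1a, which encodes HIF-1 alpha and is regulated mainly as a protein, spanned 0.97 from R1 to ESC2 and was not called, although 1 of its other probe sets with the same ends spanned 1.85. Car9, a carbonic anhydrase much used as a hypoxia marker, stayed dim in all lines, with line means of 4.10 to 4.68, and was not called.

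**Figure D3:**
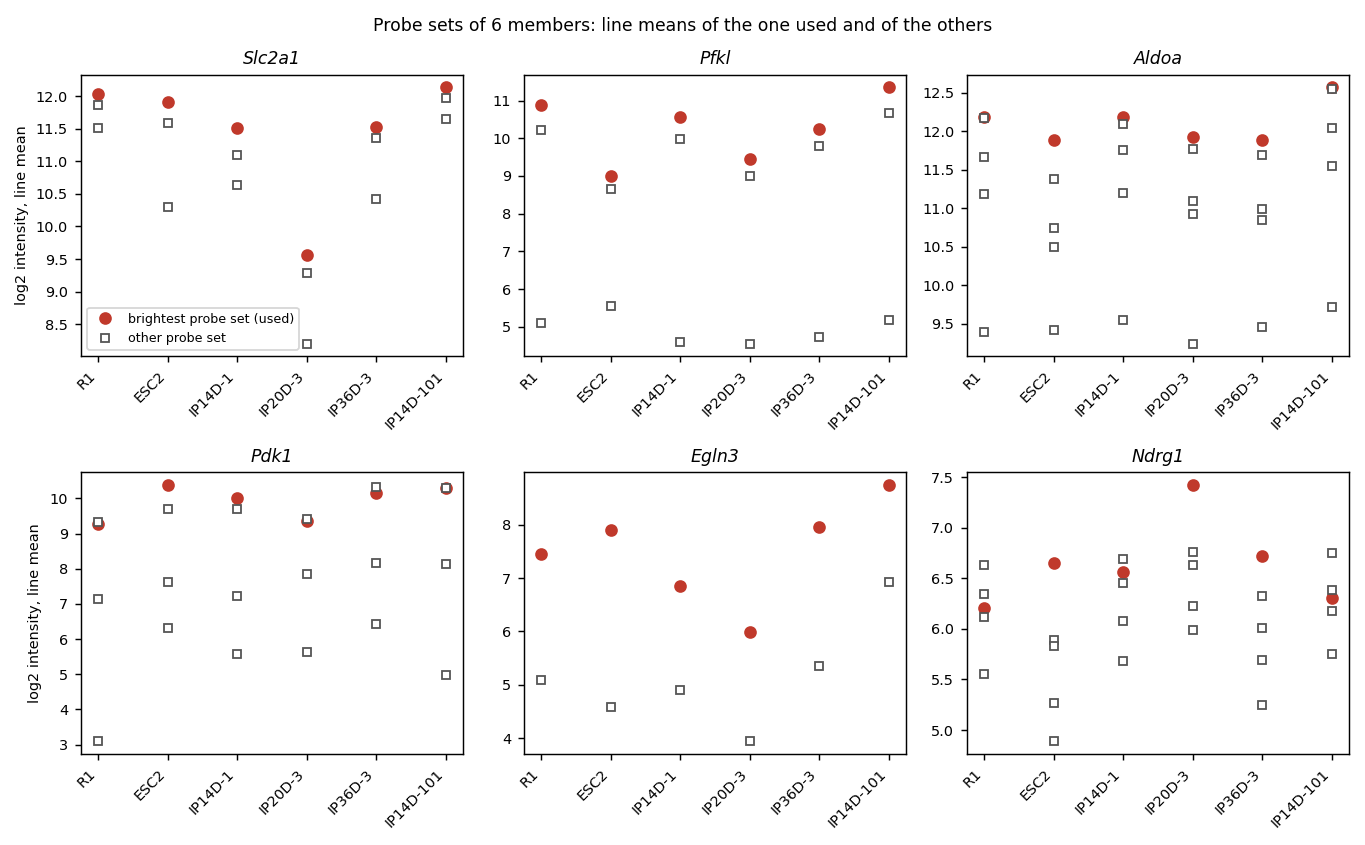
Line means in log2 intensity of all probe sets of 6 members, over the 6 lines. Filled red circles are the brightest probe set of a gene, which the tests used, and open grey squares are its other probe sets. All 3 probe sets of Slc2a1 are lowest in IP20D-3.

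The iPS lines of the B6 x D2 F1 label were compared with ESC2, the ES line of the same label, to ask how iPS and ES cells of 1 background differ. All comparisons with ESC2 share its 3 arrays, so their results are not independent. ESC2 was also the line with the highest actin and the lowest Gapdh 3' to 5' ratio. The part of RNA quality in these differences was not tested. Against ESC2, IP14D-1 had 5 members higher and 2 lower (3.44% of all genes called, 2.08% as higher and 1.36% as lower). Pfkl was 2.97-fold higher (log2 1.57 ± 0.09, SE, limma adjusted p = 4.55e-10) and Slc16a3 2.43-fold higher (adjusted p = 2.19e-06, limma). Ddit4 was higher by 1.18 ± 0.14, Vegfa by 1.15 ± 0.15 and dim Eno2 by 1.02 ± 0.17 (log2 ± SE). Ankrd37 gave -1.06 ± 0.14 and Egln3 -1.05 ± 0.17. Without its replicate 1, Ankrd37 gave -0.92 and Eno2 0.93, and without its replicate 2, Ankrd37 gave -0.99 and Egln3 -0.84, all short of the call. Eno2 also fell short, at 0.98, without ESC2 replicate 2 or 3. The second Egln3 probe set gave 0.31, in the opposite direction, and with the mean of all probe sets of a gene Pfkl gave 0.65 and was not called.

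IP20D-3 had the most member calls against ESC2, with 4 higher and 6 lower (8.6% of all genes called, 5.22% as higher and 3.38% as lower). Slc2a1 was 5.05-fold lower in IP20D-3 (log2 -2.34 ± 0.10, SE, limma adjusted p = 3.73e-12). Egln3 was 3.77-fold, Slc16a3 3.12-fold, Ankrd37 2.6-fold, Hk2 2.47-fold and Pdk1 2.04-fold lower. The genes that were higher were Vegfa (2.54-fold), Ddit4 (2.45-fold), Ldhb (2.27-fold) and Eno2 (2.09-fold). The limma adjusted p of these 10 calls was at most 3.38e-05. Pdk1 gave -0.86 without IP20D-3 replicate 3 and -0.99 without ESC2 replicate 3, and Eno2 gave 0.92 and 0.98 without IP20D-3 replicates 1 and 2. On their second brightest probe sets Egln3 gave -0.65 and Pdk1 -0.29, and neither was called. IP36D-3 had 1 member higher and 0 lower than ESC2 (3.38% of all genes called, 1.91% as higher and 1.47% as lower), namely Pfkl, 2.35-fold higher (limma adjusted p = 1.02e-08). With the mean of all probe sets, Pfkl gave 0.52 in that comparison and no member was called. The all-gene median there moved from 0.054 to -0.065 when each array was centred on 1 median.

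**Figure D4:**
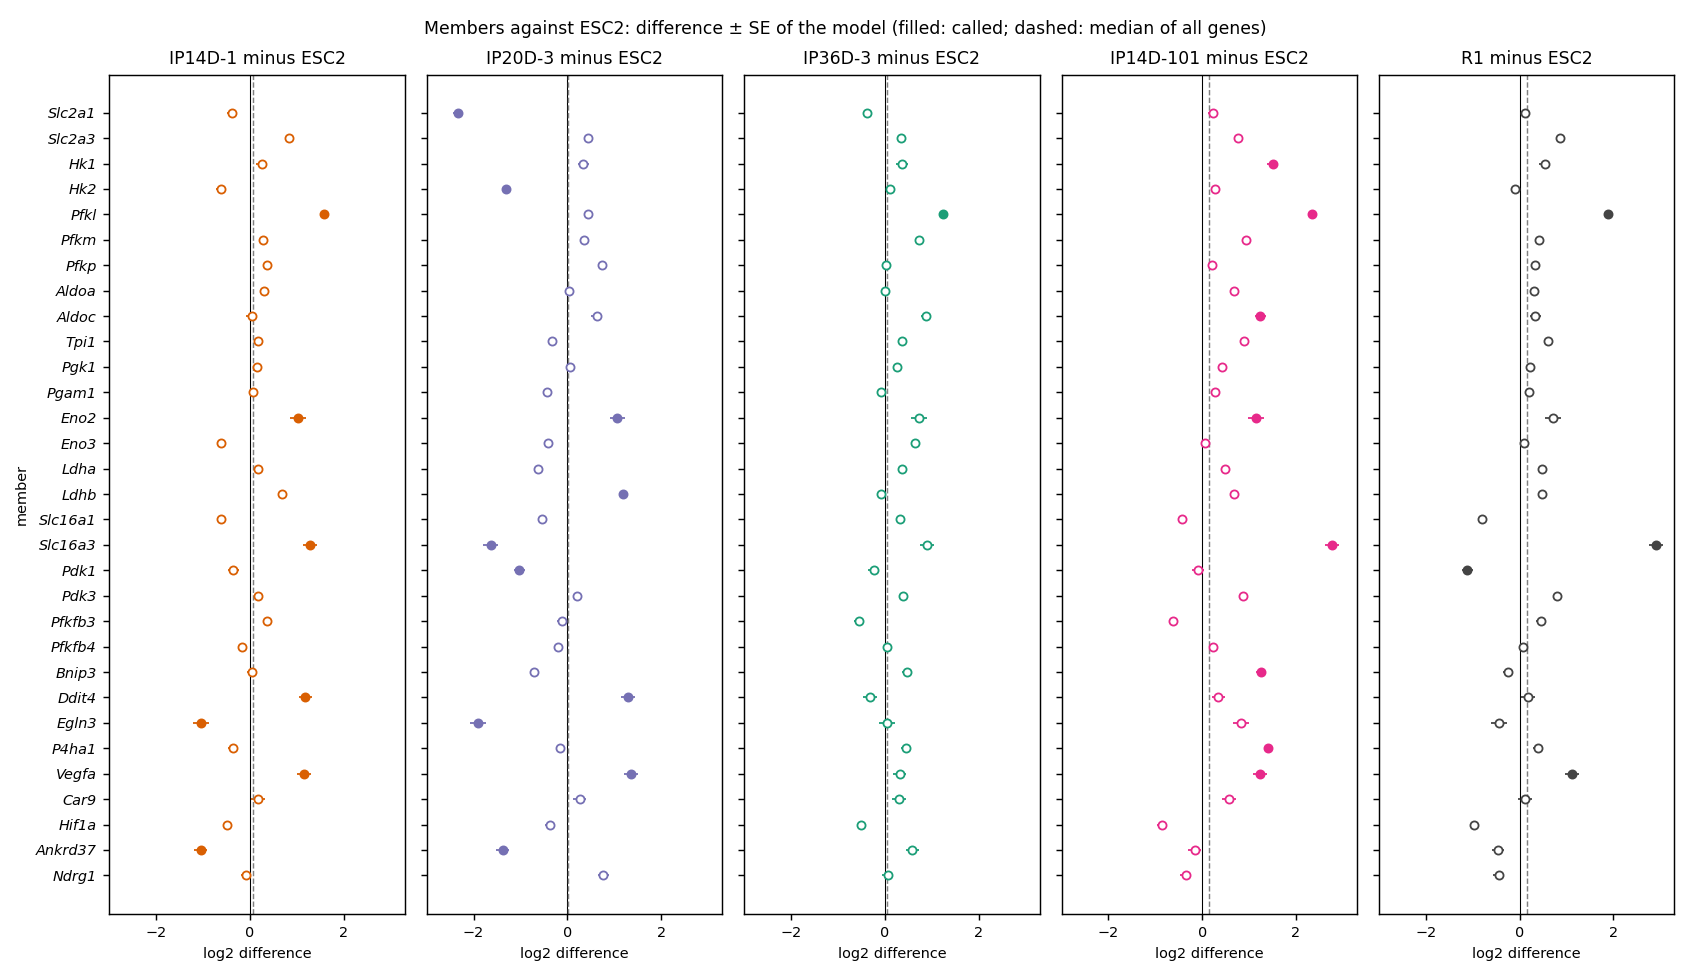
Log2 difference of each member from ESC2 in the other lines, with SE from the limma model (3 arrays a line). Filled points were called, and the dashed line is the median of all genes. Pfkl lies to the right of 1 in all panels except that of IP20D-3, and Slc2a1 lies at -2.34 in IP20D-3.

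The lines of other strain labels were compared with ESC2 to describe how far lines differ when strain differs too. R1 had 3 members higher and 1 lower than ESC2 (8.13% of all genes called, 4.38% as higher and 3.75% as lower). Slc16a3 was 7.53-fold higher in R1 (log2 2.91 ± 0.15, SE, limma adjusted p = 5.91e-11), Pfkl 3.7-fold and Vegfa 2.18-fold higher, and Pdk1 2.17-fold lower. IP14D-101 had 8 members higher and 0 lower (8.73% of all genes called, 4.67% as higher and 4.06% as lower). These were Slc16a3 at 2.78 ± 0.15, Pfkl at 2.35 ± 0.09, Hk1 at 1.50 ± 0.12, P4ha1 at 1.41 ± 0.10, Bnip3 at 1.25 ± 0.10, Aldoc at 1.24 ± 0.11, Vegfa at 1.23 ± 0.15 and Eno2 at 1.15 ± 0.17 (log2 ± SE). The median difference was 0.58 over the members and 0.15 over all genes in IP14D-101, and 0.30 and 0.15 in R1. Centring each array on 1 median moved the all-gene median by more than 0.1 in both comparisons, to -0.03 and -0.04. Counted above the all-gene median, Slc16a3 was 2.63 and Pfkl 2.20 higher in IP14D-101, and 2.76 and 1.74 higher in R1. With centred arrays the calls were 7 higher and 1 lower in IP14D-101 and 2 higher and 2 lower in R1. The share of all genes called with centred arrays is not given here, so these splits have no background beside them. After centring, Vegfa gave 0.93 in R1 and Eno2 0.97 in IP14D-101, short of the call. Aldoc gave 0.08 and Vegfa 0.98 in IP14D-101 on their second probe sets, and in R1 the second probe sets of Pdk1 and Vegfa gave -0.38 and 0.83.

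IP14D-101 and R1, whose labels both name a 129 strain, had the highest Slc16a3 and Pfkl of the 6 lines. They also had the lowest 18S control (42.5 and 54.6, against 79.0 to 323 in the other lines). Their actin 3' to 5' ratios were the lowest too (1.14 and 1.13, against 1.26 to 1.53). The part of strain or of RNA quality in these levels was not tested. Between IP14D-101 and R1, 5 members were called, 4 higher and 1 lower in IP14D-101 (2.52% of all genes called, 0.698% as higher and 1.82% as lower). Bnip3 was 2.82-fold higher in IP14D-101 (log2 1.50 ± 0.10, SE, limma adjusted p = 4.89e-09), Egln3 2.43-fold, Pdk1 2.04-fold and P4ha1 2.02-fold higher. Pfkfb3 was 2.1-fold lower, and its second probe set gave -0.37 and missed the call. P4ha1 was at the limit of the call, with 0.99 to 1.00 when R1 replicate 1 or IP14D-101 replicate 2 or 3 was left out. Pdk1 gave 0.99 without R1 replicate 3 and 0.94 without IP14D-101 replicate 1. Its next 2 probe sets by brightness read 10.30 and 8.14 in IP14D-101 and 9.32 and 7.15 in R1, each just short of a difference of 1. Its dimmest probe set lay further apart, at 4.97 in IP14D-101 and 3.09 in R1. Of the 9 hypoxia genes outside glycolysis, 3 were called. In the same comparison 9 of the 12 primitive endoderm markers were called higher in IP14D-101, and their part in these differences was not tested.

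The 3 iPS lines of the B6 x D2 F1 label were also compared with each other. Against IP36D-3, IP20D-3 had 3 members higher and 7 lower (4.24% of all genes called, 2.36% as higher and 1.89% as lower). Slc16a3 was 5.84-fold lower in IP20D-3 (log2 -2.54 ± 0.15, SE, limma adjusted p = 6.54e-10), and Ankrd37, Slc2a1 and Egln3 were 3.91-fold, 3.9-fold and 3.89-fold lower. Hk2, Bnip3 and Eno3 were lower by 2.66-fold, 2.27-fold and 2.06-fold. Ddit4 was 3.05-fold, Ldhb 2.41-fold and Vegfa 2.05-fold higher, and Vegfa missed the call at 0.95 without IP20D-3 replicate 2 and at 0.87 without IP36D-3 replicate 3. Against IP14D-1, IP20D-3 had 0 members higher and 3 lower (4.96% of all genes called, 2.8% as higher and 2.15% as lower), namely Slc16a3 at -2.92 ± 0.15, Slc2a1 at -1.94 ± 0.10 and Pfkl at -1.13 ± 0.09 (log2 ± SE). The second Pfkl probe set gave -0.98 there and was not called. IP14D-1 against IP36D-3 had 1 member higher and 3 lower (3.39% of all genes called, 1.5% as higher and 1.89% as lower), Ddit4 at 1.50 ± 0.14, Ankrd37 at -1.64 ± 0.14, Eno3 at -1.27 ± 0.09 and Egln3 at -1.09 ± 0.17. Egln3 missed the call there at -0.89 without IP14D-1 replicate 2 and at -0.46 on its second probe set. The fibroblast markers averaged 4.13 in IP20D-3, 4.37 in IP36D-3 and 5.38 in IP14D-1, and the 18S control was most variable in IP20D-3, at 178 to 540. The part of either in these differences was not tested.

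When the 4 iPS lines were compared with the 2 ES lines on line means, 0 of 31 members were called by limma (0% of 18193 genes). At an unadjusted p under 0.05 there were 700 genes and 1 member, Eno2, with an iPS minus ES difference of 0.64 ± 0.23 (SE, adjusted p of 1.00). The differences ran from -0.78 for Slc2a1 to 0.64 for Eno2, with a median of 0.11. The spread among lines of 1 type was wide for some members. For Slc16a3 the ES lines were apart by 2.91, and the iPS lines ran from 4.93 in IP20D-3 to 9.35 in IP14D-101. For Slc2a1 the iPS lines were apart by 2.57, and the ES lines read 11.90 in ESC2 and 12.02 in R1. With the B6 x D2 F1 lines alone and arrays as replicates, 2 of 31 members were called, beside 569 of all 18193 genes. The members were Pfkl at 1.08 ± 0.07 and Slc2a1 at -1.04 ± 0.08, but that comparison rests on 1 ES line and treats arrays as independent.

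As a set, the glycolysis members averaged 9.87 ± 0.07 in IP14D-101, 9.63 ± 0.01 in R1, 9.48 ± 0.01 in IP36D-3, 9.41 ± 0.06 in IP14D-1, 9.19 ± 0.01 in ESC2 and 9.03 ± 0.06 in IP20D-3 (SD, n = 3 arrays). The 9 other hypoxia genes averaged 7.89 ± 0.09 in IP14D-101 and 7.57 ± 0.07 in IP36D-3, against 7.32 to 7.42 in the other lines. Over the 6 line means, the median correlation between pairs of members was 0.31 (465 pairs), against 0.07 for pairs of all genes. It was 0.41 between glycolysis members and 0.02 between the other hypoxia genes. These correlations rest on 6 points that share arrays, scaling and strain differences, and are given as a description.

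**Figure D5:**
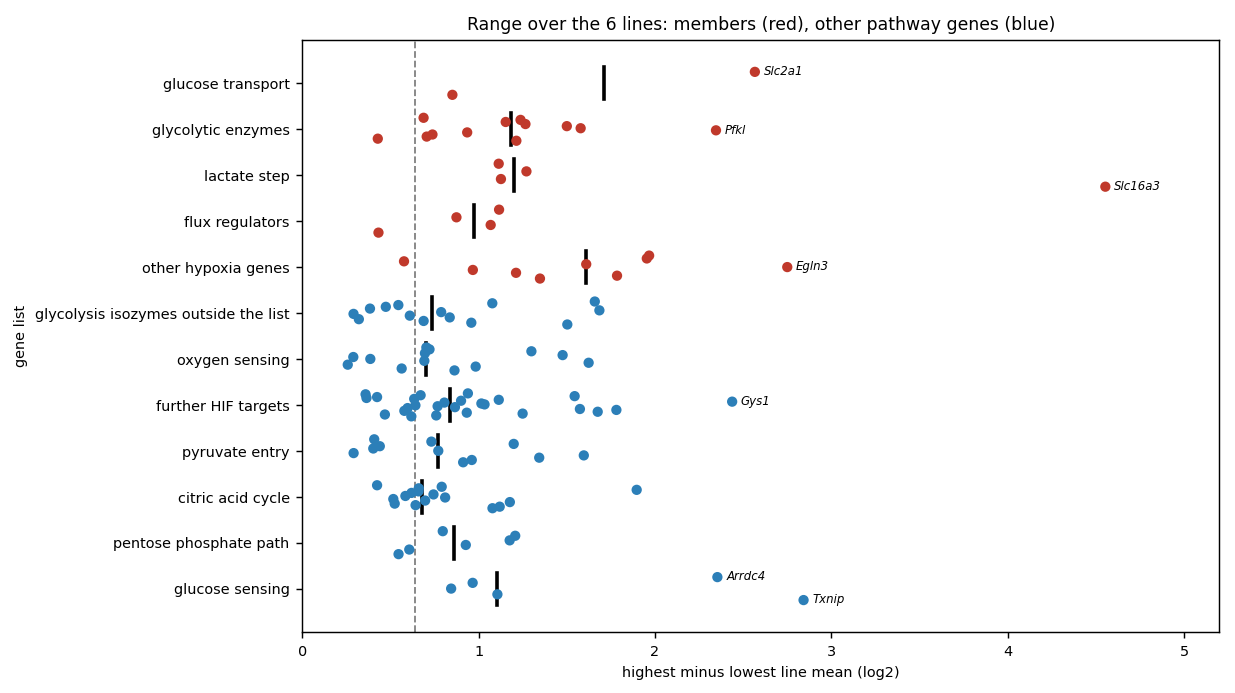
Difference between the highest and the lowest line mean (log2) for the members (red) and for genes of related pathways (blue), by list. Black bars are list medians and the dashed line is the median of all genes, 0.64. Slc16a3 has the widest span among the members, at 4.55.

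Related genes outside the member list were counted in the same F-test, in which 25.9% of all genes were called, and the counts of single lists are given as a description beside that share. Of 13 genes of oxygen sensing, 3 were called. Epas1, which encodes HIF-2 alpha, ranged from 8.60 in IP20D-3 to 10.22 in ESC2, the prolyl hydroxylase gene Egln1 from 6.23 in IP20D-3 to 7.71 in IP14D-101, and the HIF-restraining cofactor gene Cited2 from 8.89 in IP36D-3 to 10.19 in R1. Of 26 further HIF targets, 9 were called, led by the glycogen synthase gene Gys1, from 7.50 in ESC2 to 9.94 in IP20D-3. The collagen hydroxylase genes P4ha2 and Plod1 were both highest in IP14D-101 and spanned 1.78 and 1.68. Of 14 glycolysis isozymes and regulators outside the list, 4 were called, with Pfkfb2 and Tigar highest in IP20D-3 (spans 1.68 and 1.50) and the kinase gene Adpgk highest in IP14D-101 (span 1.66). Of 5 genes of glucose sensing, 3 were called. Txnip, which encodes a glucose-induced protein that limits glucose uptake, read 11.76 ± 0.06 in IP20D-3 and 8.91 ± 0.09 in ESC2 (SD, n = 3), a 7.17-fold span (F-test adjusted p = 2.49e-11). Its relative Arrdc4, also a glucose-induced arrestin, read 10.05 ± 0.03 and 7.70 ± 0.09 in the same lines, a 5.11-fold span. IP20D-3, with the lowest Slc2a1 and Hk2, was also the line with the highest Txnip and Arrdc4. A link between these levels was not tested. Mlxipl, which encodes the glucose-responsive factor ChREBP, spanned 1.11 and was highest in IP14D-101.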

How the data were processed

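The deposited values are probe set intensities on a linear scale, which the authors made with RMA in Bioconductor (version not given in the sources used here), per the labels' design text and the processing notes of the submitters. Intensities were taken to log2. Of 45101 probe sets, 64 controls were left out and 34945 named 1 gene. Gene names came from the platform annotation, and 34741 of these matched RefSeq (GRCm38.p6) by gene identifier. Each of the 18193 genes was read from its brightest probe set. The members and the related gene lists were chosen with earlier results of these data known, so patterns already seen are not independent support.

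limma 3.58.1 in R 4.3.3 fitted 1 mean per line to 18 arrays (12 residual degrees of freedom). A moderated F-test compared the 6 lines, 9 contrasts compared lines, and iPS against ES used the 6 line means. Adjusted p-values are Benjamini-Hochberg over all 18193 genes, and a call needs an adjusted p below 0.05 together with a difference of 1 or more (log2). Values on every array are given for called members with a line mean of at least 6, other members by range, and up to 3 called genes of each related list by widest span. On simulated data for IP14D-1 minus ESC2, 100% of 200 genes changed by 1.5 (log2) among 18193 were recovered with 0 false calls. That change exceeded the call limit and the noise was independent between arrays, so recovery of differences near 1 was not tested. Alternatives covered the probe set, scaling, dim genes, array weights, variance trend, call limit, replicate block and each array left out. Leaving out line ESC2, IP14D-101 or IP20D-3 from the F-test was added after seeing the data. Promoter cores were counted in Python 3.11.15.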

Additional observations from a re-analysis of the deposited data

Results flagged for a closer look

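Among the means of the 4 iPS lines, Hk1 in IP14D-101 stood far from the other 3. It read 8.07, against 6.94 in IP36D-3, the next line, and 6.82 in IP14D-1, the lowest. The gap made up 0.907 of the whole range of 1.25, above the critical value of Dixon's test for 4 values. The 31 measured members were each examined in this way and 1 was singled out, where chance alone singles out about 1 in 20.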

How the results depend on the processing

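The limit of a difference of 1 decided most counts. With an adjusted p alone, 31 members were called over the 6 lines (14360 genes against 4715). Member counts, each beside the count over all 18193 genes, then became 21 (7243 genes) for IP14D-1, 26 (8706) for IP20D-3, 19 (7091) for IP36D-3, 25 (10070) for R1 and 27 (10144) for IP14D-101 against ESC2. They became 15 (4395 genes) for IP14D-101 against R1, 18 (8501) for IP20D-3 against IP14D-1, 23 (6840) for IP20D-3 against IP36D-3 and 20 (7743) for IP14D-1 against IP36D-3. For IP36D-3 against ESC2, the mean of a gene's probe sets left 0 called and the second brightest probe set gave 2. Egln3 in IP14D-1 against ESC2 turned to 0.31 on the second brightest probe set, and the cause was not tested. For iPS against ES, the B6 x D2 F1 lines alone gave 2 members and 569 genes, against 0 and 0, and line means fixed over the arrays gave 0 members and 303 genes. Over all genes, the mean of probe sets gave 414 calls against 626 for IP14D-1 minus ESC2 and 396 against 617 for IP14D-1 minus IP36D-3, and leaving out dim probe sets, which tests fewer genes, gave 296 against 459 for IP14D-101 minus R1 and 501 against 772 for IP20D-3 minus IP36D-3. With 1 array left out at a time, the members called stayed at 21 to 22 over the lines, 5 to 7 for IP14D-1, 9 to 10 for IP20D-3, 1 to 1 for IP36D-3, 4 to 5 for R1 and 8 to 8 for IP14D-101 against ESC2, 4 to 5 for IP14D-101 against R1, 3 to 4 for IP20D-3 against IP14D-1, 9 to 11 for IP20D-3 against IP36D-3, 3 to 4 for IP14D-1 against IP36D-3 and 0 to 0 for iPS against ES.

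Of 725 values of single member calls under the alternatives, 678 kept direction and call, 46 kept direction and missed the call, and 1 was reversed. Of these values, 312 came from leaving out 1 array, and 294 of those kept the call. On the second brightest probe set 41 of 52 calls were kept, 10 were missed and 1 was reversed. Members with 1 probe set repeat the same value in that setting and in the mean of probe sets, so their agreement there is no check. Same-numbered arrays of different lines had a mean correlation of 0.04 (from -0.25 to 0.26), with 13 of 45 pairs over 0.1. Arrays of different numbers had a mean of -0.02 (from -0.29 to 0.23), with 10 of 90 pairs over 0.1. The replicate number thus paired arrays weakly if at all. With the number as a replicate block, 21 members were called over the lines, and no count of member calls changed. Genes near background, such as Eno2 and Car9, carry the least certain values.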

Other observations

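Among genes that carry pyruvate into the mitochondria and through the citric acid cycle, the median span between highest and lowest line was 0.77 and 0.68, against 1.21 for the members and 0.64 for all genes. Of 11 genes of pyruvate entry, 3 were called in the F-test over lines, which called 25.9% of all genes. The pyruvate carrier gene Mpc1 ranged from 7.64 in IP14D-1 to 8.84 in IP20D-3, while Pdk2 and Pdk4, kinases of the same family as Pdk1, were highest in IP14D-101, at 4.93 and 5.78, below the median of all genes. Of 16 citric acid cycle genes, 4 were called. Idh2, the mitochondrial isocitrate dehydrogenase, ranged from 8.01 ± 0.04 in ESC2 to 9.91 ± 0.10 in IP20D-3 (SD, n = 3), a 3.72-fold span (limma F-test adjusted p = 2.13e-11). Sdhc, a subunit of succinate dehydrogenase, spanned 1.18 and was highest in IP14D-101, and Suclg1, a subunit of succinyl-CoA ligase, spanned 1.12 and was lowest in IP20D-3. Of 6 genes of the pentose phosphate path, which draws on the same glucose phosphate, Pgls was highest in R1 (span 1.21) and Rpe was highest in IP20D-3 (span 1.18).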
